A study of Mus musculus with 14 samples.

Results

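The genes described here are 34 lysosomal genes: 18 acid hydrolases, 3 other proteins of the lysosomal lumen (Psap, Grn and Npc2), 4 proteins of the lysosomal membrane (Lamp1, Lamp2, Npc1 and Mcoln1), 7 genes of the proton pump and 2 transcription factors (Tfeb and Tfe3). They were chosen by name, as a functional group, from the 17890 genes of the expression table, and all 34 were among the 12839 genes with enough counts to be tested. Lysosomes are acidic organelles in which hydrolases break down lipids, glycans and proteins that arrive by endocytosis, phagocytosis and autophagy. The vacuolar proton pump (V-ATPase) acidifies the lumen, and TFEB and TFE3, related factors of the MiT/TFE family, enter the nucleus when their phosphorylation falls and activate lysosomal genes through an extended E-box. Phagocytes such as macrophages and neutrophils hold large amounts of these proteins.

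The cells came from the marrow of male C57BL/6J mice aged 8 weeks when the experiment began. In the diabetic group, diabetes had been induced by 5 daily injections of streptozotocin (42 to 45 mg/kg), which kills insulin-producing cells. A nonfasted glucose over 16.9 mmol/L defined diabetes and 6 weeks of hyperglycaemia followed, while the control group is described only as control or healthy. Marrow progenitors of both groups then grew for 7 days with the growth factor M-CSF in DMEM holding 5 mmol/L glucose, and the labels call the product bone marrow derived macrophages. Streptozotocin was not given apart from diabetes, so effects of the drug and of hyperglycaemia cannot be told apart. Of 14 samples, the 8 of the first phase were used, 4 in columns named D (diabetic) and 4 in columns named M. No label explains the letter M, which was assigned to the healthy group by elimination, and all directions are stated as D relative to M. The second phase (3 diabetic-trained, 3 untrained) was not analysed here. Nothing in the labels ties a library to an animal of its own, so the tests measure the spread between samples, part of which may be technical.

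Each library held 19048195 to 20027967 estimated counts, and every member had at least 364 counts in every library. Levels are given as CPM (counts scaled to library size with TMM factors) within a gene, and as TPM (scaled by transcript length too) between genes. Most markers of the labelled cell type were present. The macrophage receptor Csf1r stood at 209 ± 22.5 CPM (SD, n = 4) in the D and 162 ± 9.97 CPM in the M libraries, and Lyz2, Cd68, Msr1 and Adgre1 were well above 0, at 8150, 179, 97.2 and 87.3 CPM in D and 4610, 192, 61.7 and 46.7 CPM in M. Of the same list, Mrc1, Mertk and C1qa were near 0, at 2.59, 0.739 and 2.00 CPM in D and 2.05, 1.06 and 0.723 CPM in M. Neutrophil genes were abundant: S100a8 was at 12300 ± 2210 CPM in D and 9000 ± 609 CPM in M, and Mpo at 1140 ± 134 and 1180 ± 177 CPM. The summed level of 15 macrophage markers was 9140 to 14400 CPM in the D and 6550 to 7460 CPM in the M libraries, with 11 of 15 higher. That of 18 neutrophil markers was 48200 to 74500 and 41700 to 44200 CPM, with 12 of 18 higher. That of 13 tested B-cell markers was 77.8 to 270 and 1250 to 1630 CPM, with 11 of 13 lower. That of the mast cell and basophil markers was 1060 to 1430 and 545 to 686 CPM, with 7 of 8 tested higher. Most of the macrophage sum came from Lyz2 and from Itgam (2410 CPM in D and 1890 CPM in M). Which cells held these RNAs was not tested. These are bulk samples, in which fewer cells of a type and less RNA per cell cannot be told apart, and the part of these shifts in the results below was not tested.

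The promoters of some members carry the E-box that MiT/TFE factors prefer, and are shown first because the regulators and their possible targets are compared below. RefSeq promoter windows (GRCm38.p6, 250 bases upstream to 50 bases downstream of the start) were found for 28 of the 34 genes. The extended motif TCACGTG, searched on both strands and containing the core CACGTG, was present in 9 of the 28 windows (32.1%), against 4.29% of all 27025 genes with a window and 6.85% of the tested genes with one. The M-box TCATGTG, also searched on both strands, was in 5 of 28 (17.9%; Atp6v0c, Gla, Grn, Ppt1 and Tpp1), against 4.31% of all genes. In the stretches below, each written 5′ to 3′ on the strand of its gene, capitals mark every complete match to TCACGTG on either strand. Lamp1, Mcoln1 and Gla hold more than 1 site, and not every site of Lamp1 and Gla is shown.
Lamp1 (chr8:13159084-13159120, + strand): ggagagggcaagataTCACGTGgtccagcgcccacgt
Lamp1 (chr8:13159130-13159160, + strand): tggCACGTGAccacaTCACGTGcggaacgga
Mcoln1 (chr8:3500432-3500468, + strand): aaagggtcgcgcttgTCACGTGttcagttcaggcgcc
Mcoln1 (chr8:3500458-3500494, + strand): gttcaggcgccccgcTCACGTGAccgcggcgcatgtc
Gla (chrX:134601179-134601215, - strand): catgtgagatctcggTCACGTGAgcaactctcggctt
Glb1 (chr9:114401014-114401050, + strand): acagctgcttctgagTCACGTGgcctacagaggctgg
Gaa (chr11:119267807-119267843, + strand): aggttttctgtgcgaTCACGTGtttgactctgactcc
Naglu (chr11:101070005-101070041, + strand): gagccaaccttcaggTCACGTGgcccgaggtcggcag
Arsa (chr15:89477425-89477456, - strand): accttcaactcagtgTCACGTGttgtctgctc
Atp6v1a (chr16:44139370-44139406, - strand): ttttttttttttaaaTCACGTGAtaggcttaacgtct
The ninth gene was Atp6v0d1, whose match lies across its annotated start. A match describes the letters of a window and is not evidence of binding.

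Between genes, levels spanned a wide range in both groups, as the plot of TPM by gene shows. Psap, the precursor of the saposins that present glycolipids to hydrolases, was the highest member at 2260 ± 366 TPM in D and 2790 ± 330 TPM in M. Atp6v0c, the proteolipid that forms the rotor ring of the pump, followed at 931 ± 198 and 1000 ± 133 TPM. Lamp1, a heavily glycosylated protein of the limiting membrane, and Grn, the precursor of the granulins, came next with mean levels of 587 and 579 TPM that did not differ beyond their spread. Hexa, the alpha subunit of beta-hexosaminidase, led the hydrolases at 372 ± 34.8 and 361 ± 12.9 TPM. The lowest were Arsa (arylsulfatase A) at 18.7 ± 1.86 and 20.2 ± 1.21 TPM and Naglu (alpha-N-acetylglucosaminidase) at 16.0 ± 2.12 and 19.4 ± 2.60 TPM. Together the 34 genes took 0.736% to 0.884% of all TPM in D libraries and 0.779% to 0.911% in M libraries, ranges that overlap.

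**Figure D1:**
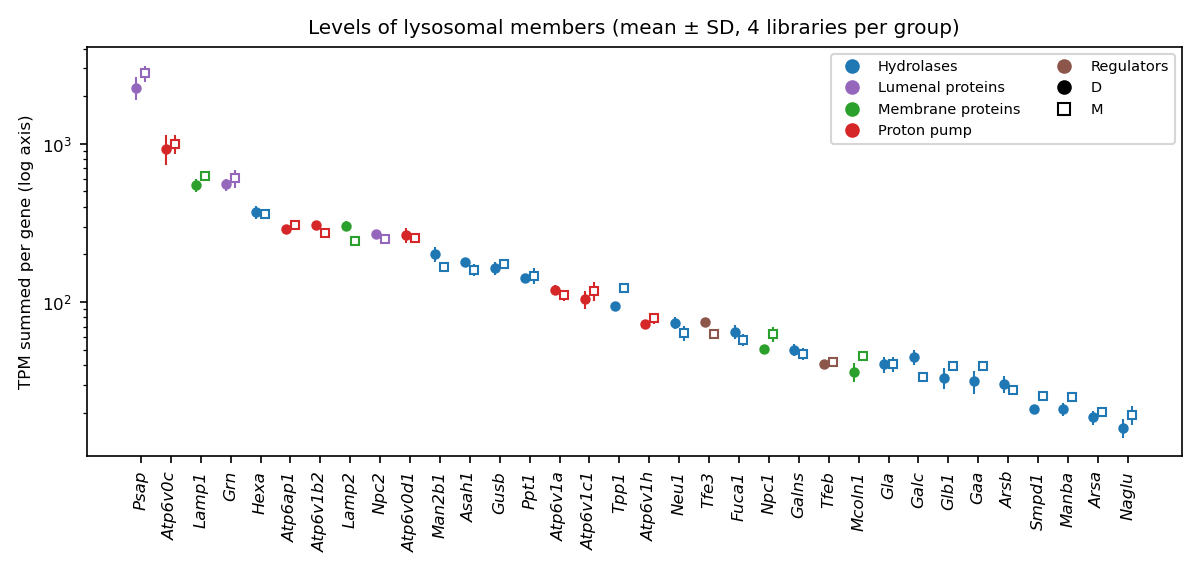
Mean TPM (log axis) of each member in D (filled circles) and M libraries (open squares), 4 libraries each, with SD bars and colours by class. Psap is highest at 2260 and 2790 TPM, and Naglu lowest at 16.0 and 19.4 TPM.

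Differences between D and M libraries were small in this group, and most members did not pass the test. In edgeR's quasi-likelihood test (Benjamini-Hochberg adjustment over all tested genes, threshold 0.05), 7 members were higher in D (20.6% of 34) and 1 was lower (2.94%), beside 17.4% higher and 17.3% lower among all 12839 genes tested. In either direction 23.5% of the members were called, beside 34.7% of all genes. The members' log2 fold changes ran from -0.24 to 0.56 with a median of 0.03, and no member changed 2-fold. The median of all tested genes was -0.03, and the median size of a change was 0.18 for members and 0.23 for all genes. In 7 members the groups did not overlap (6 with every D library above every M library), beside 34.7% of all genes. The split between directions changed with library totals in place of TMM factors, where 4 members were higher and 6 lower (29.4%, beside 37.9% of all genes). It was the same 4 and 6 on log2(TPM + 1), beside 37.7% of all genes, where the test (limma) and the filter differ too. These settings moved the median of all genes to -0.14 and -0.11, and the higher share of all called genes from 50.1% to 31.3% and 33.1%.

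**Figure D2:**
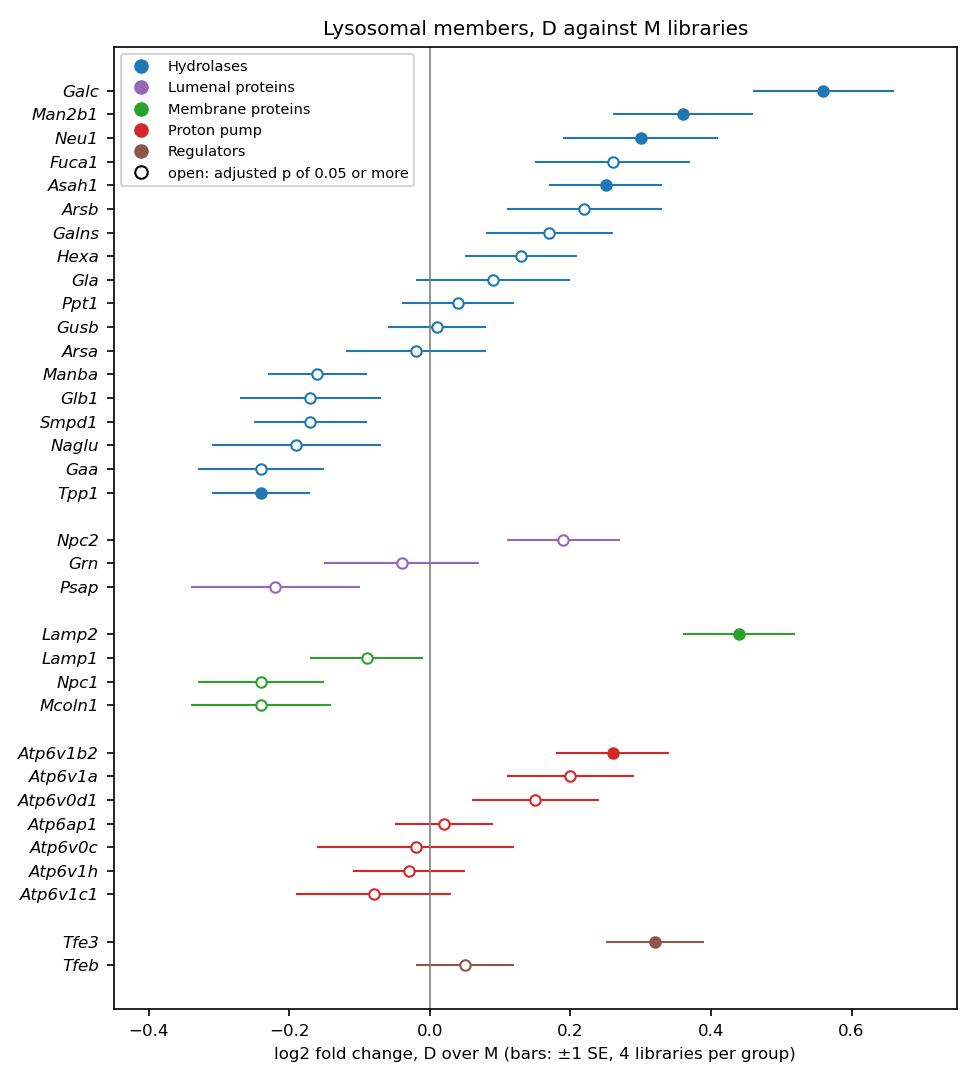
Log2 fold change of each member in D relative to M libraries with ±1 SE (4 libraries per group), by class; filled points passed the threshold. The values run from -0.24 (Tpp1, Gaa, Npc1 and Mcoln1) to 0.56 (Galc).

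Among the hydrolases, 4 of 18 rose and 1 fell in D (27.8% called, beside 34.7% of all genes). Galc, galactosylceramidase (NCBI gene 14420; chromosome 12, 98202287 to 98259459, GRCm38), cleaves galactose from galactosylceramide and was the member with the largest change. In the order of the replicate numbers 1 to 4, the D libraries held 72.2, 84.9, 101 and 88.6 CPM and the M libraries 58.4, 58.2, 63.7 and 55.6 CPM. The lowest D library exceeded the highest M library, and the log2 fold change was 0.56 ± 0.10 (SE; edgeR adjusted p = 0.00197). This call held under all 20 alternative settings, with log2 fold changes of 0.42 to 0.66.

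Man2b1, lysosomal alpha-mannosidase (NCBI gene 17159; chromosome 8, 85082730 to 85098739), trims mannose from glycoproteins. It stood at 366, 384, 508 and 403 CPM in the D libraries and 337, 318, 324 and 312 CPM in the M libraries. The groups did not overlap, D replicate 3 was far above the other D libraries, and the log2 fold change was 0.36 ± 0.10 (edgeR adjusted p = 0.0172). Leaving out M replicate 4 ended the call (0.35, adjusted p = 0.0511).

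Neu1, the lysosomal sialidase (NCBI gene 18010; chromosome 17, 34931253 to 34937297), removes terminal sialic acid. Its level was 145, 152, 186 and 146 CPM in D and 147, 111, 132 and 122 CPM in M, so M replicate 1 lay within the D range. Its log2 fold change of 0.30 ± 0.11 was just past the threshold (edgeR adjusted p = 0.0496), and 13 of 20 alternatives ended the call (adjusted p 0.0235 to 0.146 over all).

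Asah1, acid ceramidase (NCBI gene 11886; chromosome 8, 41340646 to 41397644), splits ceramide into sphingosine and a fatty acid. Its levels were 205, 224, 238 and 212 CPM in D and 186, 205, 185 and 164 CPM in M. The lowest D and the highest M library were the same when rounded, and the log2 fold change was 0.25 ± 0.08 (edgeR adjusted p = 0.0369). In 11 of 20 alternatives the call was lost (adjusted p 0.0105 to 0.157). Its span overlaps that of Frg1 (41389181 to 41417138, 65.5 CPM), and whether counting used strand is not given.

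The only hydrolase that fell was Tpp1, tripeptidyl peptidase 1 (NCBI gene 12751; chromosome 7, 105744811 to 105752282), which removes tripeptides from the ends of proteins. Values were 183, 170, 167 and 160 CPM in D and 218, 198, 197 and 192 CPM in M. All D libraries were below all M libraries, and the log2 fold change was -0.24 ± 0.07 (edgeR adjusted p = 0.0192). The call was lost in 3 of 20 alternatives, with adjusted p values from 0.00184 to 0.218.

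The remaining 13 hydrolases did not pass, with log2 fold changes from -0.24 (Gaa, the glycogen-degrading alpha-glucosidase, adjusted p = 0.0666) to 0.26 (Fuca1, alpha-fucosidase, adjusted p = 0.0906). Positive values were given by Arsb (0.22), Galns (0.17), Hexa (0.13), Gla (0.09), Ppt1 (0.04) and Gusb (0.01). Negative values were given by Arsa (-0.02), Manba (-0.16), Smpd1 (-0.17), Glb1 (-0.17) and Naglu (-0.19). In sphingolipid breakdown Galc and Asah1 rose, while acid sphingomyelinase (Smpd1), beta-galactosidase (Glb1), arylsulfatase A (Arsa), alpha-galactosidase (Gla) and Hexa did not pass. Of the mannosidases Man2b1 rose and beta-mannosidase (Manba, adjusted p = 0.0865) did not pass. With library totals, Smpd1 (-0.27, edgeR adjusted p = 0.0185), Manba (-0.27, adjusted p = 0.0268) and Gaa (-0.34, adjusted p = 0.0283) were called lower, and so they were on log2(TPM + 1). Summed over the 18 hydrolases, the level was 2250 to 2570 CPM in D and 2070 to 2260 CPM in M. In TPM the sums were 1520 to 1640 in D and 1530 to 1620 in M, ranges that nearly coincide.

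No lumenal protein outside the hydrolases passed at the gene level (0% called, beside 34.7% of all genes). Psap (NCBI gene 19156; chromosome 10, 60277628 to 60302600) stood at 3920, 2960, 2980 and 3230 CPM in D and 4350, 4130, 3380 and 3340 CPM in M. The groups overlapped through D replicate 1, and the log2 fold change was -0.22 ± 0.12 (edgeR adjusted p = 0.191). Grn gave -0.04 ± 0.11 (adjusted p = 0.805). Npc2, which carries cholesterol through the lumen to the membrane protein Npc1, gave 0.19 ± 0.08 (adjusted p = 0.0762).

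Of the membrane proteins, Lamp2 rose and the other 3 did not pass in the fit on group only (25% called, beside 34.7% of all genes). Lamp2 (NCBI gene 16784; chromosome X, 38399647 to 38456460) is a major glycoprotein of the lysosomal membrane that acts in autophagy. It stood at 475, 545, 568 and 546 CPM in D and 378, 424, 390 and 379 CPM in M. No libraries of the groups overlapped, and the log2 fold change of 0.44 ± 0.08 (edgeR adjusted p = 0.002) passed under all 20 alternatives (0.31 to 0.52). Its closest relative Lamp1 had 733, 652, 638 and 652 CPM in D and 784, 741, 671 and 662 CPM in M. These ranges overlap through D replicate 1, and the log2 fold change was -0.09 ± 0.08 (adjusted p = 0.392). Npc1, the cholesterol exporter, gave -0.24 ± 0.09 (adjusted p = 0.0571), and Mcoln1, a cation channel that releases lysosomal calcium, gave -0.24 ± 0.10 (adjusted p = 0.0798). Both were called lower with library totals (-0.34 each, edgeR adjusted p = 0.0129 and 0.0258), on log2(TPM + 1) and with the replicate block (-0.23 and -0.24, adjusted p = 0.0438 and 0.0268).

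In the proton pump 1 of 7 genes rose (14.3% called, beside 34.7% of all genes). Atp6v1b2, the B2 subunit of the cytosolic ATP-hydrolysing sector (NCBI gene 11966; chromosome 8, 69088736 to 69113718), stood at 424, 447, 519 and 449 CPM in D and 366, 373, 411 and 386 CPM in M. The D libraries were all above the M libraries, with a log2 fold change of 0.26 ± 0.08 (edgeR adjusted p = 0.0276), and 9 of 20 alternatives ended the call (adjusted p 0.00409 to 0.114). Its partner in that sector, the catalytic subunit A (Atp6v1a), gave 0.20 ± 0.09 (adjusted p = 0.101). The membrane-sector subunit Atp6v0d1 gave 0.15, the accessory protein Atp6ap1 0.02, and the cytosolic-sector subunits Atp6v1h and Atp6v1c1 -0.03 and -0.08.

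The most abundant pump gene, Atp6v0c, stood at 733, 571, 502 and 518 CPM in D and 716, 599, 523 and 522 CPM in M. Both groups were highest in replicate 1, and the log2 fold change was -0.02 ± 0.14 (edgeR adjusted p = 0.916). Atp6ap1 stood at 336, 339, 366 and 342 CPM in D and 333, 347, 362 and 326 CPM in M, ranges that nearly coincide. Its fold change turned from 0.02 to -0.01 with its most abundant transcript alone. Summed over the 7 genes, the level was 1970 to 2240 CPM in D and 1830 to 2160 CPM in M (1920 to 2410 and 1970 to 2330 TPM).

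Of the regulators, Tfe3 rose and Tfeb did not pass (50% called, beside 34.7% of all genes). Tfe3 (NCBI gene 209446; chromosome X, 7762530 to 7775202) stood at 113, 123, 134 and 124 CPM in D and 99.2, 97.7, 99.5 and 98.9 CPM in M. The M libraries were nearly equal and all lay below the D libraries, and the log2 fold change of 0.32 ± 0.07 (edgeR adjusted p = 0.00433) passed under all 20 alternatives (0.22 to 0.72). Tfeb was at 44.6 to 49.9 CPM in D and 43.1 to 51.0 CPM in M, with a log2 fold change of 0.05 ± 0.07 (adjusted p = 0.595). None of the 9 members with TCACGTG in the promoter window was called, and 6 of the 19 with a window and no match were, with median log2 fold changes of -0.09 and 0.05. Among all tested genes with a window, 34.2% of the 707 with the motif and 34.2% of the 9621 without it were called. These counts of few genes are a description and were not tested. Gaa and Mcoln1, which hold the motif, were called lower with library totals, on log2(TPM + 1) and with the replicate block. RNA levels of these factors do not report their phosphorylation or place in the cell, which were not measured.

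**Figure D3:**
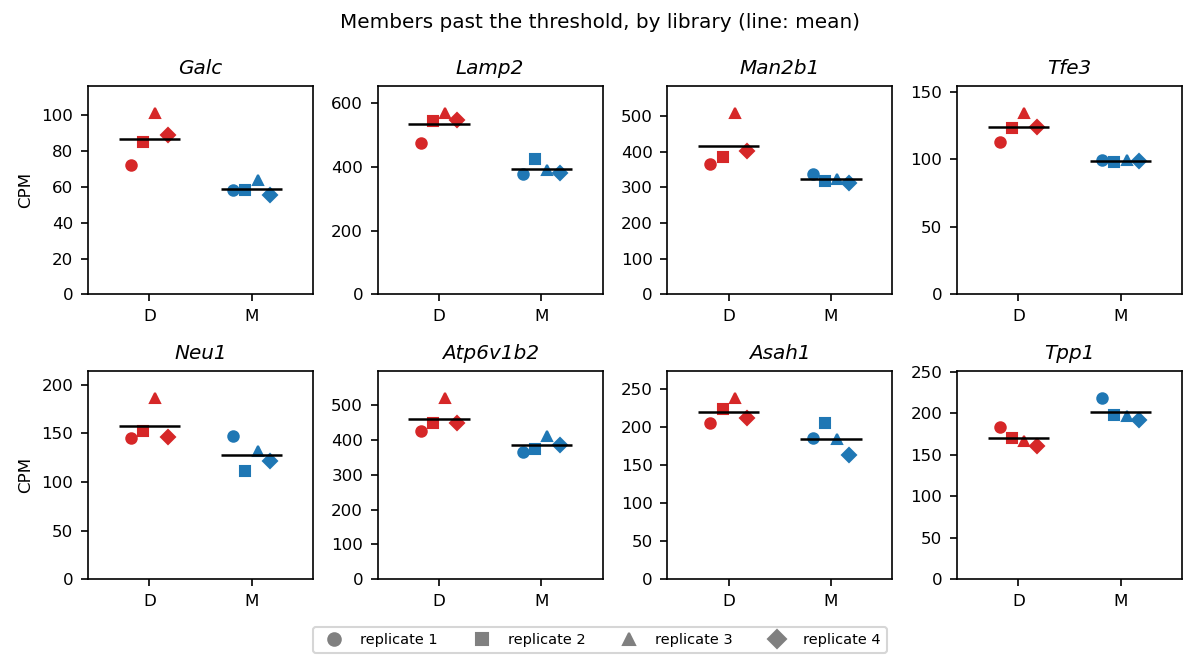
CPM in every library of the 8 members past the threshold; marker shapes give the replicate number and lines the group mean. In the 7 higher genes, D replicate 1 (circle) is the lowest and D replicate 3 (triangle) the highest D library. CPM is divided by TMM factors, which were 1.01 in D replicate 1 and 0.913 in D replicate 3.

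The D libraries were ordered alike in the genes that rose: in CPM all 7 were lowest in D replicate 1 and highest in D replicate 3. Smpd1, Fuca1, Ppt1 and Atp6ap1, which did not pass, were lowest and highest in the same libraries. D replicates 1 and 3 also had the highest and lowest TMM factors of the D group (1.01 and 0.913). CPM is divided by these factors, for the marker sums too, and the part of this scaling in the order was not tested. The neutrophil marker sum (48200 and 74500 CPM) and the macrophage marker sum (9140 and 14400 CPM, mostly Lyz2 and Itgam) were also lowest and highest in these 2 libraries. The erythroid sum (7090 and 1380 CPM) and the dendritic cell sum (609 and 314 CPM) ran the other way. Their part in the result was not tested. Without both libraries, an alternative added after the data were seen, 6 members were higher and 3 lower (26.5%), beside 33.1% of all genes. Without D replicate 1 alone 9 were higher and 5 lower (41.2%), beside 41.3% of all genes. Leaving out any 1 library gave 4 to 14 called members (11.8% to 41.2%), beside 26.7% to 41.3% of all genes.

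With the replicate number as a block, 12 members (35.3%) were called, 8 higher and 4 lower, beside 37.5% of all genes in the same fit. The 8 calls of the unblocked fit were kept. Added were Npc2 (log2 fold change 0.19, edgeR adjusted p = 0.04), Npc1 (-0.23, adjusted p = 0.0438), Mcoln1 (-0.24, adjusted p = 0.0268) and Gaa (-0.25, adjusted p = 0.0251). In this fit the cholesterol carrier of the lumen and the exporter of the membrane were thus called in opposite directions. Neither passed in the fit on group only, and of the 20 alternatives 2 called Npc2 and 7 called Npc1.

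The table is per transcript, so the mix of transcripts within a gene could be compared. Shares of a gene's estimated counts were tested for 27 transcripts of 11 members with an exact two-sided permutation test over the 8 libraries. In 8 transcripts the groups did not overlap, which gives the smallest p that 4 against 4 allows (0.0286), and none passed after adjustment over the 27 (adjusted p = 0.0964). At this smallest p a transcript can pass the adjustment only if many of the 27 reach it too. This test therefore cannot decide about a single transcript. A fit over all 31785 transcripts with limma, and one with edgeR's diffSpliceDGE over 27254, were added after the data were seen.

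Psap was the member whose transcript shares passed a test across all transcripts. Its main transcript NM_001146120 took 91.4%, 87.0%, 90.6% and 89.2% of the gene in D and 76.7%, 75.7%, 77.9% and 78.3% in M. The transcript NM_001146124, singled out after its values were seen, took 1.54%, 5.02%, 0.847% and 4.16% in D and 16.6%, 16.0%, 13.9% and 14.1% in M. No library of one group came near the other. In CPM, NM_001146124 was at 92.1 ± 59.0 in D and 581 ± 130 in M, 6.31-fold higher in M, while NM_001146120 was at 2930 ± 449 and 2930 ± 360. The tools differed on these shares. limma called both (adjusted p = 0.0125 and 0.0335), beside 0.17% of all transcripts (0% with the block), but neither with the replicate block (adjusted p = 0.107 and 0.203). diffSpliceDGE called NM_001146124 without and with the block (adjusted p = 1.98e-06 and 0.000109, beside 0.25% and 0.117% of all transcripts) and not NM_001146120 (adjusted p = 1).

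In GENCODE, the partners of these Psap transcripts share 12 exons and differ in the first, of 156 bases against 71, and by 3 bases at the end of the last. Their coding lengths are 1662 and 1653 bases. The partner of NM_001146120 is also that of NM_001146122 and NM_001146123, so it does not settle the exact exons of NM_001146120. The start of NM_001146124 lies 6833 bases downstream of the other, inside the gene. The 100 bases before each start, printed because the starts differ, are as follows (GRCm38.p6, + strand, 5′ to 3′, no motif marked).
NM_001146120 (chr10:60277528-60277627): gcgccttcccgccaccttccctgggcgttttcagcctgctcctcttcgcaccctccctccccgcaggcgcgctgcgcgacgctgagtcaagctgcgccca
NM_001146124 (chr10:60284361-60284460): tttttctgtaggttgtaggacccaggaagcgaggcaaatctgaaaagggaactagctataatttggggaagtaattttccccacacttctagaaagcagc
The first holds 71.0% G or C and 11 CG pairs, and the second 43.0% and 1. Reads from a first exon were not available here, so the share rests on how the authors' program divided reads among transcripts.

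Lamp2 makes 3 proteins that share their first 370 residues and differ in the membrane anchor and tail. LAMP-2A (NM_001017959) is the receptor of chaperone-mediated autophagy. It took 10.5%, 13.4%, 14.4% and 11.6% of the gene in D and 15.5%, 15.2%, 15.3% and 14.4% in M. LAMP-2B (NM_010685) took 88.6%, 85.8%, 84.8% and 87.6% in D and 83.9%, 84.3%, 83.9% and 84.5% in M, so it was the main form in every library. LAMP-2C (NM_001290485) stayed between 0.522% and 1.02%. In CPM, LAMP-2B was at 462 ± 28.0 in D and 330 ± 18.4 in M, without overlap, and LAMP-2A at 67.1 ± 13.6 and 59.4 ± 4.07, with overlap. The shares did not pass across all transcripts (limma adjusted p = 0.502 and 0.485; diffSpliceDGE adjusted p = 1 for both).

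For Tfe3, the transcript NM_001105197 took 60.4%, 47.5%, 62.1% and 57.4% of the gene in D and 43.5%, 43.6%, 42.9% and 41.2% in M. It starts at 7763959 on chromosome X, downstream of the starts of NM_001271489 (7762676) and NM_001105196 (7762664). Its level was 70.4 ± 10.3 CPM in D and 42.3 ± 1.07 CPM in M, and its share did not pass across all transcripts (limma adjusted p = 0.225; diffSpliceDGE adjusted p = 1).

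Tfeb was equal at the gene level but divided differently between 2 predicted transcripts. XM_006524006 took 69.8%, 81.2%, 76.2% and 87.3% in D and 0.00671%, 0.0266%, 66.8% and 0% in M, so M replicate 3 looked like the D libraries. XM_006524003 took 69.6%, 77.6%, 10.9% and 70.9% in M and at most 5% in D. Neither passed across all transcripts (limma adjusted p = 0.208 and 0.119; diffSpliceDGE adjusted p = 1 and 0.984).

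**Figure D4:**
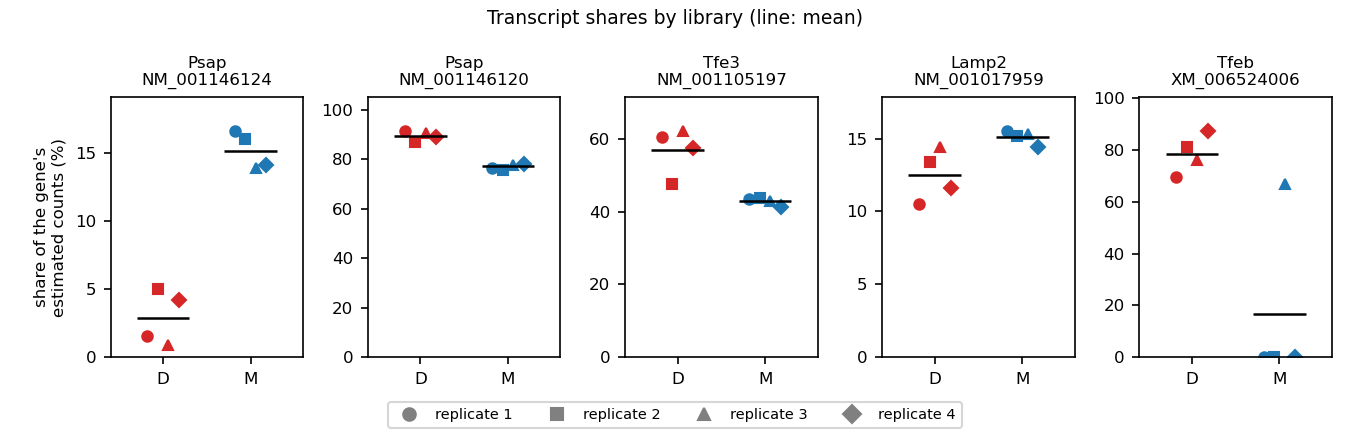
Share of the gene's estimated counts (%) taken by 5 transcripts in every library, with group means as lines and replicate numbers as shapes. Psap NM_001146124 takes 0.847% to 5.02% in D and 13.9% to 16.6% in M, and Tfeb XM_006524006 is at 66.8% in M replicate 3 beside 0% to 0.0266% in the other M libraries.

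Other genes of the pathway gave a background for the members. Of 35 other lysosomal hydrolases and their partners 6 were higher and 6 lower (34.3% called, beside 34.7% of all genes). The bone and macrophage phosphatase Acp5 fell from 15.2 ± 0.681 CPM in M to 7.52 ± 0.938 CPM in D (log2 fold change -1.02; edgeR adjusted p = 0.000127). Plbd1 and the chitobiase Ctbs rose by 0.65 and 0.82 on the log2 scale.

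Of 35 other membrane genes tested, 5 were higher and 8 lower (37.1% called, beside 34.7% of all genes). Mcoln2, a relative of Mcoln1, fell by 1.63 on the log2 scale, from 24.4 ± 3.89 CPM in M to 7.85 ± 2.12 CPM in D (edgeR adjusted p = 0.000184). The arginine sensor Slc38a9, which acts upstream of mTORC1, fell by 0.67 and the chloride exchanger Clcn7 by 0.37, and Laptm4b rose by 0.55.

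Of 16 other pump and assembly genes tested, 4 were higher and 1 lower (31.2% called, beside 34.7% of all genes). The assembly factors of the RAVE type moved in opposite directions: Dmxl2 rose by 0.81 and Dmxl1 fell by 0.41 (edgeR adjusted p = 0.00629 and 0.00479). The subunits Atp6v1g2 and Atp6v0e rose by 0.57 and 0.25. The paralogues Tcirg1 (-0.26, adjusted p = 0.0604) and Atp6v0d2 (0.28, adjusted p = 0.344) did not pass.

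Of 22 other regulators, 4 were higher and 3 lower (31.8% called, beside 34.7% of all genes). Ppp3ca and Ppp3r1, subunits of the phosphatase calcineurin that acts on TFEB, rose by 0.44 and 0.27. Mtor, a kinase that phosphorylates TFEB, and Flcn, folliculin, fell by 0.35 and 0.30. Singled out after their values were seen, the called genes Zkscan3 and Gsk3b gave -0.31 and 0.27 (edgeR adjusted p = 0.0194 and 0.045). Whether these changes bear on the phosphorylation of TFEB was not tested. Mitf, a family member of Tfeb and Tfe3, rose by 0.49 (21.3 ± 4.65 against 15.2 ± 1.57 CPM; edgeR adjusted p = 0.0286), and Tfec gave -0.11 (adjusted p = 0.448).

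Of 28 genes of sorting to the lysosome 3 were higher and 7 lower (35.7% called, beside 34.7% of all genes). Gga2, an adaptor that carries hydrolase receptors from the Golgi, fell by 1.04, from 80.4 ± 5.07 CPM in M to 39.1 ± 3.55 CPM in D (edgeR adjusted p = 2.1e-05). The retromer subunit Vps35 rose by 0.33. Vps41 and Vps39, subunits of the HOPS tethering complex, fell by 0.28 and 0.23. Singled out after their values were seen, the other HOPS subunits Vps16, Vps33a and Vps11 fell by 0.27, 0.21 and 0.29, and Vps18 gave -0.06 (adjusted p = 0.529).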

How the data were processed

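Messenger RNA libraries of the first phase (4 D, 4 M) were analysed. Per the series' design text, the authors removed poor reads with SOAPnuke 1.5.6 and used an aligner spelled HISTA2 (2.1.0) with mm10. For the quantifier, annotation release and strand setting, the answer is not given in the sources used here. The deposited values, per the file headers, are raw estimated counts for each RefSeq transcript and TPM scaled by length. The other 24 deposited value columns were not used.

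Estimated counts were summed per NCBI gene and rounded. edgeR 4.0.16 (R 4.3.3) gave TMM factors (0.913 to 1.01 in D, 1.03 to 1.05 in M), removed low genes with filterByExpr (minimum count 10, minimum total 15) and fitted quasi-likelihood models on group only, with Benjamini-Hochberg adjustment at 0.05. Totals of 19048195 to 20027967 counts per library limit the precision only slightly beside a biological coefficient of variation of 12.4%. All 34 members are named; every library is given for called members, the 3 others of highest TPM, and any that turned with its main transcript. From each further list up to 4 called genes of lowest p are named, plus 4 paralogues; 1 gene so chosen is not reported here. The members and lists were chosen with earlier results of these data known.

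Replicate numbers come from the labels. For D and M libraries with the same number, deviations from group means had correlations of 0.115 to 0.182 (other pairs -0.178 to 0.0735), each same-number value above 0.1, so the block is given beside the results it changes. The main fits and the share test did not use it, and no label says what the numbers stand for. Chi-square per gene between replicates was 6.49 to 66.3, above sampling noise in each pair.

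Alternatives were DESeq2 1.42.0 size factors and test, library totals, limma 3.58.1 (voom, and log2 TPM with pseudocounts of 1 and 0.1), other filters, the main transcript, the block and each library left out. For transcript shares, diffSpliceDGE was tried first. On artificial counts it recovered 50% of 4-fold changes in transcripts of low dispersion, and fewer in transcripts of any dispersion. With its number of calls over all transcripts already known, it was replaced by limma on the arcsine square root of shares, and results of both are given. That replacement was tested mainly on large changes in transcripts of low dispersion, where limma recovered 90.5% of 4-fold changes. In transcripts of any dispersion, limma recovered 30.7% and diffSpliceDGE 10.7% of artificial 4-fold changes, and neither recovered 2-fold changes. Shifts in shares, large ones too, can thus be missed by both, and a share that did not pass is not shown to be unchanged.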

Additional observations from a re-analysis of the deposited data

Results flagged for a closer look

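Of 68 groups of 4 libraries checked (34 members in D and in M), 3 held a library far from the others by Dixon's test at 95%, a rule that by chance marks about 1 in 20 groups. Galns was at 64.9 CPM in M replicate 1 and 51.7 to 52.4 CPM in the other M libraries. Neu1 reached 186 CPM in D replicate 3, beside 145 to 152 CPM elsewhere in D. Lamp1 reached 733 CPM in D replicate 1, beside 638 to 652 CPM elsewhere in D.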

How the results depend on the processing

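Of the 8 called members, Galc, Lamp2 and Tfe3 kept their call under all 20 alternatives, and the other 5 lost it in at least 1. With library totals only, 4 members were higher and 6 lower (3346 of all genes lower). With log2(TPM + 1) and log2(TPM + 0.1) the members split 4 and 6 and 1460 and 1456 of all genes were higher; with no TPM filter they split 4 and 5 and 1350 genes were higher. The most abundant transcript alone left 4 members higher and 0 lower (11.8%), and 2092 genes called (16.8%), 1114 higher and 978 lower. The replicate block gave 4 lower members, and 4815 genes called in all; it ended no member's call. Leaving out 1 library gave 4 to 14 members called, 3 to 9 higher and 0 to 5 lower, and without D replicates 1 and 3 there were 3 lower. All-gene counts with 1 library left out ran from 3458 to 5369. The causes of these shifts were not tested.

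No member that passed changed direction. Among those that did not pass, library totals gave Gla -0.01, Gusb -0.09, Ppt1 -0.07, Atp6ap1 -0.09 and Tfeb -0.05. Each TPM setting gave Gusb -0.10, Ppt1 -0.05, Atp6ap1 -0.07 and Tfeb -0.03. DESeq2 size factors and the DESeq2 test both gave Arsa 0.01 and Atp6v0c 0.00, and the main transcript gave Atp6ap1 -0.01. With 1 library left out, log2 fold changes ran from -0.01 to 0.07 for Gusb, -0.08 to 0.05 for Arsa, -0.03 to 0.10 for Ppt1, -0.10 to 0.07 for Grn, -0.01 to 0.06 for Atp6ap1, -0.13 to 0.08 for Atp6v0c, -0.15 to 0.00 for Atp6v1c1 and -0.08 to 0.03 for Atp6v1h.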
